A study of Homo sapiens with 4 samples.

Results

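The miR-148 and miR-152 family, comprising hsa-miR-148a, hsa-miR-148b and hsa-miR-152, was followed through small RNA libraries of hepatoma cells and of the cancer stem-like cells cultured from them. The members were chosen by name, as the guide strands of the 3 hairpins, and make up 3 of the 1733 miRNAs listed. There were 4 libraries, 1 per condition: the human hepatocellular carcinoma (HCC) lines Hep3B and Huh7, and the populations cultured from them as hepatic cancer stem cells (HCSCs), named Hep3B-C and Huh7-C. Total RNA was used, and no further treatment is named in the labels. Each HCSC population comes from a single established line, and how it was enriched is not given in the sources used here.

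A miRNA guides a silencing complex to messenger RNAs, mainly through its seed, the bases near its 5′ end that pair with the target. miRNAs that share a seed are counted as 1 family because their predicted targets largely overlap. miR-148a is among the abundant miRNAs of hepatocytes, where it is known to act on the LDL receptor. Members of the family are also known to repress the maintenance DNA methyltransferase DNMT1, and miR-148a has been described to target DNMT3B.

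The mature sequences are shown because the shared seed defines the family and the bases outside it tell the members apart in sequencing. They were taken from RefSeq (GRCh38.p14), with the seed (bases 2 to 8) in capitals.
hsa-miR-148a: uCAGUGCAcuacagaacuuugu
hsa-miR-148b: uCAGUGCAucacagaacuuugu
hsa-miR-152: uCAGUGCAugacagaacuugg
The same sequences follow with the 3 positions at which any member differs (9, 10 and 20, counted from 1 at the 5′ end) in capitals.
hsa-miR-148a: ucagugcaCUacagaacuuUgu
hsa-miR-148b: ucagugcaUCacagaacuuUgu
hsa-miR-152: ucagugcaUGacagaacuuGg
From miR-148a to miR-148b the changes were C9U and U10C, 2 of 22 bases. From miR-148a to miR-152 they were C9U, U10G and U20G, 3 of the 21 bases that both have. From miR-148b to miR-152 they were C10G and U20G. The members were therefore separated by 2 or 3 bases, and how many mismatches the authors allowed when reads were assigned to miRNAs is not given in the sources used here.

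Of 2370 mature human miRNAs in the RefSeq table, 3 held CAGUGCA at bases 2 to 8, and these were the members. A further 5 (miR-130b, miR-301a, miR-301b, miR-3666 and miR-4295) held the same letters 1 base earlier, at bases 1 to 7. The table is not complete, since it held no sequence for hsa-miR-148a*, the other strand of the miR-148a hairpin. Any miRNA absent from it was not searched. The other strand of the miR-148b hairpin, hsa-miR-148b*, has an unrelated seed and is shown for that contrast.
hsa-miR-148b*: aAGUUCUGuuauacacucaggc

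The 3 hairpins lie on different chromosomes (coordinates on GRCh38, genes from GENCODE 29). MIR148A is at chr7:25949919-25949986 on the minus strand, where no other annotated gene overlaps it. MIR148B, at chr12:54337216-54337314 on the plus strand, is inside an intron of COPZ1, which encodes a subunit of the coatomer coat of Golgi vesicles, and of the overlapping noncoding gene AC078778.2. MIR152, at chr17:48037161-48037247 on the minus strand, is inside an intron of COPZ2, which encodes the paralogous coatomer subunit. Each hairpin lies on the chromosome of a HOX gene cluster, whose miRNAs are described further on.

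The counts summed over miRNAs were 1739278 in Hep3B and 5430195 in Hep3B-C, then 5741567 in Huh7 and 4045199 in Huh7-C. These were 10.4%, 35.2%, 54.1% and 37.8% of all reads of the libraries, so by these totals the Hep3B library had the smallest miRNA fraction. The totals were taken from the study's description and cannot be recomputed from the miRNA counts. Whether the total of Hep3B is correct was not tested, and every TPM value of Hep3B and fold change against it by total reads rests on it. Levels are given as TPM, here the counts divided by the total reads of the library and scaled to 1e+06. Fold changes per total miRNA counts stand beside them because the scales disagree wherever Hep3B is compared. The hepatocyte miRNA miR-122 had 397 counts in Hep3B and 144814 to 489443 in the other libraries, and the hepatocyte miRNAs miR-192 and miR-194 were detected in all 4. The summed level of 5 blood-cell miRNAs was 0.0648 to 0.477 TPM in 3 libraries and 74.9 TPM in Huh7. Huh7 had 773 counts of miR-451, 20 of miR-142-3p, 3 of miR-142-5p, and 0 of miR-223 and of miR-150. The part of this list in the results was not tested. The endothelial miRNA miR-126 measured 48.1 to 191 TPM.

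miR-148a was the dominant member in every library. Its level was 5678 TPM in Hep3B (95296 counts) and 23754 TPM in Hep3B-C (366764 counts), then 24145 TPM in Huh7 (256476 counts) and 28608 TPM in Huh7-C (306533 counts). It ranked 7th, 5th, 5th and 4th among all miRNAs of the respective libraries. Hep3B alone stood low on this scale, and the other 3 libraries lay close together. As a share of miRNA counts, miR-148a made up 5.48% of Hep3B, 6.75% of Hep3B-C, 4.47% of Huh7 and 7.58% of Huh7-C, so that Huh7 was then the lowest. Both HCSC libraries exceeded their parental line on either scale.

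miR-148b was present at a lower level. It measured 662 TPM in Hep3B (11116 counts) and 1281 TPM in Hep3B-C (19783 counts), then 756 TPM in Huh7 (8029 counts) and 1859 TPM in Huh7-C (19920 counts). Both HCSC libraries were above both parental libraries in TPM. Its share of miRNA counts was 0.639%, 0.364%, 0.140% and 0.492% in the same order, where Hep3B became the highest.

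miR-152 was the least abundant member. It measured 30.6 TPM in Hep3B (514 counts) and 35.0 TPM in Hep3B-C (541 counts), then 14.9 TPM in Huh7 (158 counts) and 48.6 TPM in Huh7-C (521 counts). The exact 95% intervals were 28.0 to 33.4, 32.1 to 38.1, 12.6 to 17.4 and 44.5 to 53.0 TPM, so that Hep3B and Hep3B-C overlapped, Huh7 was lower and Huh7-C higher. These intervals, like all those given here, cover counting error only, since there was no replicate library. Levels of different miRNAs of nearly equal length were compared as read counts, with no correction for how efficiently each is captured in a library.

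**Figure D1:**
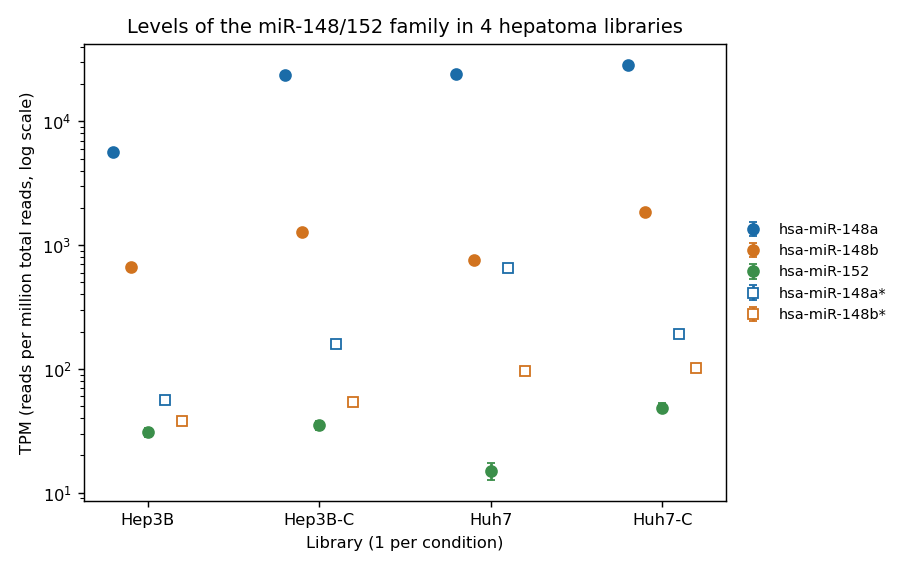
Level of each family member (filled circles) and of the opposite strands of 2 hairpins (open squares) in each library, in TPM on a log axis, with exact 95% counting intervals that are mostly smaller than the symbols. miR-148a lies between 5678 and 28608 TPM, above every other strand in every library, and miR-152 lies lowest, between 14.9 and 48.6 TPM.

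Read counts of the family summed to 6371 TPM in Hep3B and 25070 TPM in Hep3B-C, then 24916 TPM in Huh7 and 30516 TPM in Huh7-C. The sum followed miR-148a, with 89.1% of the family's reads in Hep3B and 94.7% in Hep3B-C, then 96.9% in Huh7 and 93.7% in Huh7-C. miR-148b supplied 10.4%, 5.11%, 3.03% and 6.09%. miR-152 supplied 0.481%, 0.140%, 0.0597% and 0.159%. The parental lines held the highest and the lowest share of each member, and the HCSC libraries lay between them.

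The first comparison asked how the family differed between Hep3B-C and Hep3B. miR-148a was up-regulated by a log2 fold-change of 2.06 (95% interval 2.05 to 2.07, 4.18-fold). miR-148b gave 0.95 (0.92 to 0.99) and miR-152 gave 0.19 (0.02 to 0.37), both under the log2 threshold of 1. Across the 475 miRNAs that reached 10 counts in a library of the pair the median log2 fold-change was 1.42, so miR-148a lay 0.64 above that median, miR-148b 0.47 below it and miR-152 1.23 below it. There were 157 miRNAs with a larger change than miR-148a, 324 with a larger one than miR-148b and 405 with a larger one than miR-152. Per total miRNA counts the changes were 0.30, -0.81 and -1.57, with miR-152 called lower and neither of the others called. Of all 834 miRNAs tested, 47 were called up and 112 down on that scale. For a call, the log2 fold-change had to reach 1 in either direction with an adjusted p not above 0.01. The p came from Audic and Claverie's exact Poisson test, which compares 2 libraries and not the conditions. By total reads 1 of 3 members was called up and 0 down, beside 34.1% and 2.52% of the 834 miRNAs tested. By the fold alone, the counts of members were the same, beside 66.5% up and 5.05% down of the 475 miRNAs with 10 counts or more. The 1 call is thus no more than the share of all miRNAs called up.

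In the Huh7 pair, miR-148b and miR-152 were the members with the larger change. miR-152 was up-regulated in Huh7-C by a log2 fold-change of 1.71 (1.45 to 1.97) and miR-148b by 1.30 (1.26 to 1.34), while miR-148a gave 0.24 (0.24 to 0.25), below the threshold. The median of 431 miRNAs in this pair was -0.66, and the members lay 2.37, 1.96 and 0.91 above it in that order. Only 15 miRNAs had a larger change than miR-152, 21 had a larger one than miR-148b and 95 a larger one than miR-148a. Per total miRNA counts the changes were 2.23 for miR-152, 1.82 for miR-148b and 0.76 for miR-148a, and the same members were called. Of all 772 miRNAs tested, 56 were called up and 74 down on that scale. By total reads 2 of 3 members were called up and 0 down, beside 3.11% and 17.1% of 772 miRNAs tested in the same way. By the fold alone the members' counts were again the same, beside 7.42% up and 37.4% down of 431 miRNAs. When replicates were assumed to vary with a coefficient of 0.4 in place of counting error alone, neither pair had a member called in either direction. At that setting 25 of 834 miRNAs were called up and 0 down in the Hep3B pair. For the Huh7 pair 5 of 772 were called up and 10 down.

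**Figure D2:**
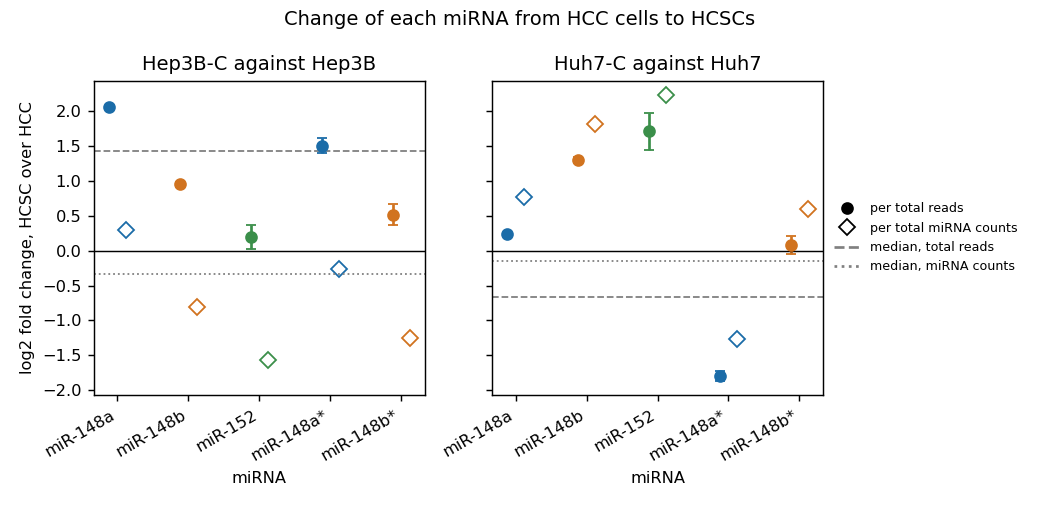
log2 fold-change of HCSC over HCC library for each strand in the Hep3B pair (left) and Huh7 pair (right), per total reads with 95% counting intervals (filled circles) and per total miRNA counts (open diamonds). Lines mark the median of all miRNAs that reached 10 counts on each scale. miR-148a leads the members in the Hep3B pair at 2.06 and is the lowest of the members in the Huh7 pair at 0.24.

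**Figure D3:**
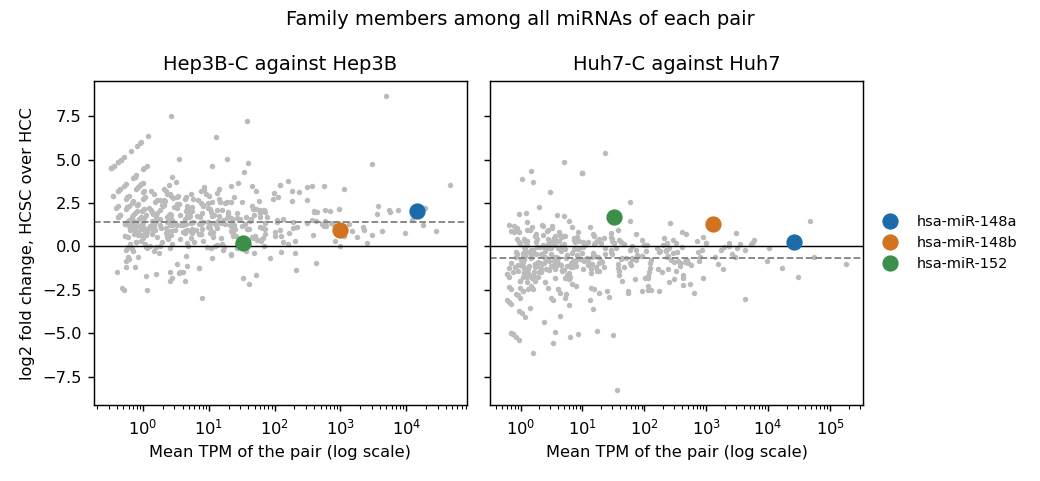
log2 fold-change per total reads against the mean TPM of the pair (log axis) for every miRNA that reached 10 counts in a library of the pair (grey) and for the family members (coloured); dashed lines mark the medians of 1.42 and -0.66. Of the 3 members only miR-148a is above the median line in the Hep3B pair, and each is above it in the Huh7 pair.

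The order of the members' changes was reversed between the pairs. In the Hep3B pair the log2 fold-change of miR-148a exceeded that of miR-148b by 1.11 (1.08 to 1.15) and that of miR-152 by 1.87 (1.70 to 2.04). In the Huh7 pair the same differences were -1.05 (-1.09 to -1.02) and -1.46 (-1.72 to -1.21), with miR-148a the lower. miR-148b less miR-152 gave 0.76 (0.58 to 0.94) and -0.41 (-0.67 to -0.15). These differences do not depend on the library size, since both miRNAs were counted in the same libraries.

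Read ratios within a library show the same values directly. There were 8.57 reads of miR-148a per read of miR-148b in Hep3B and 18.5 in Hep3B-C, then 31.9 in Huh7 and 15.4 in Huh7-C. The parental lines lay 3.73-fold apart and the HCSC libraries 1.20-fold. For miR-148a per miR-152 the ratios were 185 in Hep3B and 678 in Hep3B-C, then 1623 in Huh7 and 588 in Huh7-C, where the parental lines were 8.76-fold apart and the HCSC libraries 1.15-fold. The ratio of miR-148b to miR-152 was 21.6, 36.6, 50.8 and 38.2. Here the intervals of Hep3B-C (33.6 to 39.9) and Huh7-C (35.0 to 41.8) overlapped. Each of the 3 ratios rose from Hep3B to Hep3B-C, fell from Huh7 to Huh7-C and was closer between the HCSC libraries than between the parental lines. Among all 8385 ratios of 2 miRNAs that had at least 100 counts in every library, 57.2% were closer between the HCSC libraries, 38.7% moved in opposite directions in the pairs and 23.4% did both. The 3 ratios of the family come from the same 3 counts per library and are not independent of each other.

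**Figure D4:**
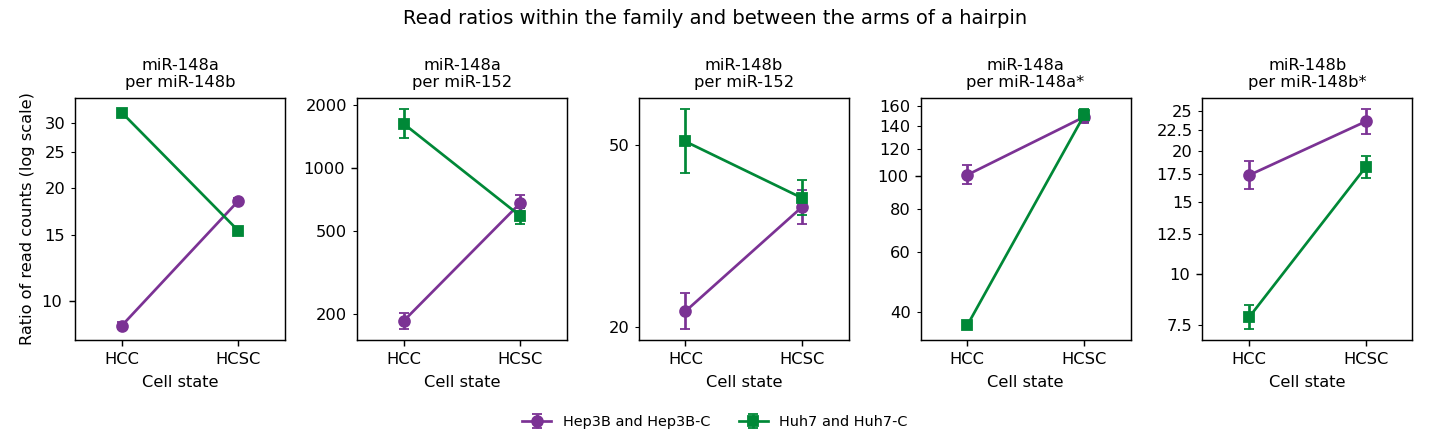
Ratio of read counts (log axes) in the HCC library and the HCSC library of each line, for the 3 pairs of members and for the 2 arms of the miR-148a and miR-148b hairpins, with 95% counting intervals. In each panel the 2 lines lie farther apart as HCC cells than as HCSCs, for miR-148a per miR-152 at 185 and 1623 against 678 and 588.

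Between the parental lines, miR-148a was higher in Huh7 than in Hep3B by a log2 fold-change of 2.09, miR-148b gave 0.19 and miR-152 was lower by -1.04 (-1.31 to -0.78). This was 1 of 3 members up and 1 down, beside 34.1% and 9.18% of 828 miRNAs, or 57.8% and 18.3% by the fold alone. On the scale of miRNA counts the values were -0.29, -2.19 and -3.42, so that the direction for miR-148a and miR-148b depended on the scale and that for miR-152 did not. Between Huh7-C and Hep3B-C the values were 0.27 for miR-148a, 0.54 for miR-148b and 0.47 for miR-152 (0.30 to 0.65), with 0 of 3 members called beside 14.4% up and 23.0% down of 868 miRNAs, or 22.7% and 46.8% by the fold alone. Relative to miRNA counts they were 0.17, 0.43 and 0.37. By total reads the gap between lines was smaller in the HCSC libraries for miR-148a and miR-152 and larger for miR-148b, and per total miRNA counts it was smaller for the 3 members. Of 130 miRNAs with at least 100 counts in every library, 62.3% and 60.0% had a smaller gap on these scales.

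Across both lines, edgeR's quasi-likelihood test with the parental line as a block gave log2 fold-changes of HCSC over HCC of 0.83 for miR-148a (adjusted p = 0.584), 0.80 for miR-148b (adjusted p = 0.783) and 0.62 for miR-152 (adjusted p = 0.891). No member was called, beside 0.0% of 443 miRNAs in either direction, 31 of which had an unadjusted p under 0.05. DESeq2 called 4 miRNAs up and 1 down, with 0 members among them. The edgeR fit had 1 residual degree of freedom. With 1 library per condition it came from how far the change from HCC to HCSC differed between the lines. The p-values therefore do not measure spread between replicate libraries. For Huh7 over Hep3B in the same edgeR fit miR-148a gave 0.78 (adjusted p = 0.0970), miR-148b -0.03 (adjusted p = 0.977) and miR-152 -0.68 (adjusted p = 0.675). Again 0 of 3 members were called, beside 9.71% of miRNAs in each direction.

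The opposite strands are usually degraded when the guide is loaded. The ratio of the arms is a ratio of read counts and carries no library size. How far it reflects loading, stability or capture of the strands was not tested. miR-148a* had 947 counts in Hep3B and 2470 in Hep3B-C, then 7003 in Huh7 and 2043 in Huh7-C, or 56.4, 160, 659 and 191 TPM. Huh7 stood high, opposite to the position of Huh7 for miR-152. There were 101 reads of miR-148a per read of miR-148a* in Hep3B (94.4 to 107) and 148.5 in Hep3B-C (143 to 155), then 36.6 in Huh7 (35.8 to 37.5) and 150.04 in Huh7-C (144 to 157). The intervals of the HCSC libraries overlapped, whereas the parental lines were clearly separated.

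miR-148b* had 638, 840, 1022 and 1092 counts in the same order, or 38.0, 54.4, 96.2 and 102 TPM. The ratio of miR-148b to it was 17.4 in Hep3B and 23.6 in Hep3B-C (22.0 to 25.3), then 7.86 in Huh7 and 18.2 in Huh7-C (17.2 to 19.4). Both hairpins thus had more guide per opposite strand in either HCSC library than in its parental line, and Huh7 gave the lowest ratio of each. The log2 change of the ratio was 0.56 and 2.03 for the miR-148a hairpin and 0.43 and 1.22 for the miR-148b hairpin for the Hep3B and Huh7 pairs. Over the 29 hairpins with at least 10 counts for each arm in every library, the medians were 0.04 and 0.40. The ratio was higher in both HCSC libraries for 37.9% of these hairpins, and closer between the lines in the HCSC libraries for 58.6%. In log2 units the gap between lines went from 1.46 to 0.015 for miR-148a, a fall exceeded by 1 of the 29 hairpins, and from 1.15 to 0.37 for miR-148b, exceeded by 6.

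As single strands, miR-148a* was called up in Hep3B-C (log2 fold-change 1.50) and down in Huh7-C (-1.79, -1.86 to -1.72). Of all miRNAs tested, 34.1% were called up in the Hep3B pair and 17.1% down in the Huh7 pair. Against the median of all miRNAs miR-148a* stood at 0.08 in the Hep3B pair, where 226 of 475 had a larger change. Its distance from the median was -1.12 in the Huh7 pair. In the Huh7 pair the strands of this hairpin therefore moved apart, since miR-148a gave 0.24. Scaled to miRNA counts, miR-148a* gave -0.26 and -1.27 in the Hep3B and Huh7 pairs, and was called, as down, only in the Huh7 pair. By total reads miR-148b* gave 0.52 and 0.08 (-0.04 to 0.21) and was called in neither pair. On miRNA counts it was called down in the Hep3B pair at -1.25. Calls down on that scale numbered 112 of 834 miRNAs in the Hep3B pair and 74 of 772 in the Huh7 pair.

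The pattern over the 4 libraries was compared with that of all miRNAs with at least 100 counts in every library, by the root mean square distance of log2 TPM centred on its mean. miR-148a lay nearest to miR-3928 (distance 0.151), miR-421 (0.154) and miR-193a-5p (0.200) among 129 miRNAs, while its family members were 31st (miR-148b, 0.678) and 79th (miR-152, 1.11). miR-152 had miR-148b as its nearest miRNA (0.445), followed by miR-4746-5p (0.539) and miR-93 (0.617). miR-148b lay nearest to miR-196b (0.308), miR-221* (0.350) and miR-30d (0.402), with miR-152 6th. With the minimum lowered to 10 counts, miR-450b-5p was nearest to both miR-152 (0.404) and miR-148b (0.194), and 1 of the 3 miRNAs nearest to miR-152, miR-148b, was still among them. These are descriptions over 4 libraries that share 1 depth each.

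The miRNAs of the HOX clusters on the same chromosomes were listed because they share the neighbourhood of the hairpins. miR-196b, encoded 1.22 Mb from MIR148A, measured 189 TPM in Hep3B and 553 TPM in Hep3B-C, then 362 TPM in Huh7 and 589 TPM in Huh7-C. miR-196a, encoded at MIR196A2, 345 kb from MIR148B, and at MIR196A1, 595 kb from MIR152, measured 0.596, 1.10, 3371 and 3726 TPM. Its level was set apart by line, and neither miR-148b nor miR-152 showed a gap of that size between the lines. miR-10a, encoded 543 kb from MIR152, had 15, 42, 4053 and 3218 counts, and miR-615-3p, encoded 303 kb from MIR148B, had 0, 0, 24 and 7. In the Hep3B pair 2 of the 3 tested were called up (miR-196b and miR-10a) and 0 down, beside 34.1% and 2.52% of all miRNAs tested. By the fold alone the shares were 66.5% and 5.05% of miRNAs with 10 counts or more. In the Huh7 pair 0 of 4 were called up and 1 down (miR-615-3p), beside 3.11% and 17.1%, or 7.42% and 37.4% by the fold alone. The interval of miR-10a in the Hep3B pair was 0.73 to 2.56 (15 and 42 counts). That of miR-615-3p in the Huh7 pair was -3.25 to -0.53 (24 and 7 counts), and both crossed the fold threshold. With miRNA counts as the library size the calls of the HOX-linked miRNAs became 0 up and 0 down for the Hep3B pair, and 1 up and 0 down for Huh7. On that scale 47 of all 834 miRNAs were called up and 112 down for Hep3B, and 56 and 74 of 772 for Huh7.

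The family was also set beside 9 other miRNAs known to repress DNA methyltransferases or the histone methyltransferase EZH2. In the Hep3B pair 5 of the 9 were called up (miR-185, miR-143, miR-101, miR-26a and miR-26b) and 1 down (miR-29c). Of all miRNAs tested, 34.1% were called up and 2.52% down. Each of the 9 had 10 counts or more in a library of the pair. Of all such miRNAs 66.5% were up and 5.05% down by the fold alone. The 9 had a median log2 fold-change of 1.09 against 1.42 for such miRNAs. In the Huh7 pair 0 were called up and 5 down (miR-29a, miR-29b, miR-29c, miR-143 and miR-101), beside 3.11% and 17.1% of all miRNAs tested. Among miRNAs with 10 counts or more, as each of the 9 had, the shares were 7.42% and 37.4% by the fold alone. The median of the 9 was -1.21 against -0.66. Among the calls down, the intervals of miR-143 (-2.41 to -0.39, 33 and 13 counts) and miR-29c (-1.76 to -0.67, 96 and 42 counts) crossed the fold threshold. miR-148b and miR-152, called up in the Huh7 pair, thus moved the other way from the 5 called down. miR-101, which represses EZH2, measured 795 TPM in Hep3B and 1923 TPM in Hep3B-C, then 2611 TPM in Huh7 and 1084 TPM in Huh7-C. miR-29a, which represses the de novo methyltransferases, measured 106 and 66.3 TPM in the Hep3B pair and 1079 and 168 TPM in the Huh7 pair, with log2 fold-changes of -0.68 and -2.69. Per total miRNA counts 0 of the 9 were called up in either pair, and 3 down for Hep3B and 2 for Huh7, beside 112 of 834 and 74 of 772 miRNAs called down. miR-143 is also a marker of fibroblasts and smooth muscle, and that list of 4 summed to 1.77 to 111 TPM over the libraries. Most of the sum in Hep3B and Hep3B-C was miR-143 itself (427 and 1706 counts). There miR-145 had 0 and 5 counts, miR-199a-5p 1 and 0, and miR-214 0 and 0. Huh7 and Huh7-C had 33 and 13 of miR-143, 0 and 0 of miR-145, 17 and 4 of miR-199a-5p, and 1 and 2 of miR-214. The part of this list in these counts was not tested.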

How the data were processed

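Small RNA libraries were sequenced on the Illumina Genome Analyzer II. Per the study's methods, the authors removed contaminant reads and reads under 18 nt, aligned the rest with SOAP to NCBI Build 36.1, set aside other noncoding RNAs and annotated miRNAs with miRBase release 17. The deposited values are raw read counts per mature miRNA. No normalization had been applied to them, and 0 columns belonged to other samples. TPM was computed from the total reads that the study states for each library, with 0 set to 0.001. A count of 3, the floor, corresponded to 0.179 to 0.282 TPM. Pairs were tested with Audic and Claverie's exact Poisson test (2-sided, scipy 1.17.1) and Benjamini-Hochberg adjustment over all miRNAs with a count of 1 or more in a library of the pair. The p was 2 times the smaller tail. The upper tail left out the observed count and the lower tail included it, which lowers p for increases at low counts. What this did to the number of miRNAs called up was not tested. Fold-change intervals and shares are exact binomial (Clopper-Pearson) at 95%, and intervals for differences of 2 fold changes are normal approximations of counting error. Both lines were fitted with edgeR 4.0.16 (quasi-likelihood, TMM, at least 10 counts in at least 2 libraries, adjusted p under 0.05), with DESeq2 1.42.0 as an alternative. The line entered as a block because each HCSC library derives from its line, and deviations of a line's libraries from the group means correlated at 0.836. Libraries were left out in fits without the block, since the block would leave no residual degree of freedom. Alternatives changed the library sizes, the count minimum for likeness, the count filter, the thresholds, the assumed variation and the libraries included. Sequences come from RefSeq GRCh38.p14, in which hsa-miR-148a* was not matched. The text names the members, the opposite strands, the 3 miRNAs nearest in pattern, the lists of HOX-linked and of methyltransferase-related miRNAs, and cell type markers. The members and lists were chosen with earlier results of these data known. The shares over all ratios of 2 miRNAs were added after the ratios of the family had been seen.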

Additional observations from a re-analysis of the deposited data

Results flagged for a closer look

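Several values pointed in opposite directions in the Hep3B and Huh7 pairs. With 1 library per condition, each of these differences was not tested beyond counting error. Relative to the median of all miRNAs, the log2 fold-change of miR-148b was 2.43 higher in the Huh7 pair than in the Hep3B pair, and that of miR-152 was 3.60 higher. For miR-148a* the Huh7 pair less the Hep3B pair was -3.29 by total reads and -1.21 relative to the median. For miR-148b* it was 1.65 relative to the median.

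The contrasts between members, which carry no library size, also changed sign. Huh7 pair less Hep3B pair, miR-148a less miR-148b gave -2.17, miR-148a less miR-152 gave -3.33 and miR-148b less miR-152 gave -1.17 in log2 units.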

How the results depend on the processing

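The log2 fold-change of miR-148a stayed above 0 in both pairs under each library size tried, and miR-148b and miR-152 stayed called up in the Huh7 pair under each of these. Over all 772 miRNAs of that pair, 40 to 78 were called up with these sizes, against 24 by total reads. Of 96 values of the members in the Poisson comparisons under alternatives, 69 kept direction and call, 12 lost a call, 2 gained one and 13 reversed. Of 48 in the fits of both lines, 39 kept them and 9 reversed. Here each value was set against the fit of all libraries with the block, also where the alternative itself lacked the block. In that fit miR-148b for Huh7 over Hep3B lay near 0 at -0.03, so small shifts reversed its sign. The cause of the reversals was not tested. Library sizes below are given in the order total miRNA counts, TMM, DESeq2 size factors and total miRNA counts without the top 5. The family total gave 0.21, 0.56, 0.80 and 0.49 in the Hep3B pair, 0.81, 0.61, 0.87 and 1.03 for Huh7-C against Huh7, -0.42, 0.51, 0.52 and 0.28 for Huh7 against Hep3B, and 0.18, 0.55, 0.59 and 0.82 for Huh7-C against Hep3B-C. Members called up in the Hep3B pair became 0 with each size and 0 at an assumed coefficient of variation of 0.4, and members called down became 1 (miR-152) except with DESeq2 size factors. Of all 834 miRNAs of that pair, 47, 71, 96 and 71 were called up with these sizes and 112, 76, 59 and 79 down. At 0.4, 25 were called up and 0 down. For Huh7-C against Huh7 0 were called up at 0.4, beside 5 up and 10 down of all 772 miRNAs. For Huh7 against Hep3B 0 were called up and 2 down with each size, and 0 and 0 at 0.4. Of all 828 miRNAs of that comparison, 84, 129, 131 and 113 were called up and 249, 162, 162 and 178 down. At 0.4 these counts were 109 and 38. For Huh7-C against Hep3B-C 2 were called up without the top 5, beside 164 of all 868 miRNAs.

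In the Hep3B pair miR-148b became -0.81, -0.46, -0.23 and -0.53, miR-152 -1.57, -1.22, -0.99 and -1.29, and miR-148b* -1.25, -0.90, -0.66 and -0.97, while miR-148a* reversed with total miRNA counts (-0.26). For Huh7 against Hep3B miR-148b became -2.19, -1.27, -1.26 and -1.49 and miR-148b* -1.04, -0.12, -0.11 and -0.34, while miR-148a reversed with total miRNA counts (-0.29). With both arms summed, the miR-148a hairpin held 88.7%, 94.6%, 96.6% and 93.5% of the family in Hep3B, Hep3B-C, Huh7 and Huh7-C.

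In the fits of both lines 0 members were called under any alternative, also without the replicate block. Each fit that leaves out a library also lacks the block, so its values compare with the 4-library fit without it, which gave 0.81 for miR-148a, 0.79 for miR-148b and 0.29 for miR-152 for HCSC over HCC. Leaving out each library in turn then gave 0.42 to 1.30 for miR-148a, 0.23 to 1.41 for miR-148b, -0.44 to 1.84 for miR-152 (-0.44 without Huh7 and -0.23 without Huh7-C), -1.58 to 0.73 for miR-148a* (above 0 without Huh7, and -0.85 with 4 libraries and no block) and -0.69 to 0.69 for miR-148b*. miR-148b*, at -0.02, became 0.025 with DESeq2, 0.30 with total reads and 0.13 with no replicate block. For Huh7 over Hep3B, miR-148b became 0.36 with total reads and 0.23 with no replicate block, and leaving out libraries gave -0.94 to 0.86. miR-148a gave 0.76 without the block and 0.33 to 1.37 without a library. miR-152 gave -0.37 without the block and -1.87 to 0.35 without a library, above 0 without Hep3B at 0.19 and without Huh7 at 0.35. A condition left with 1 library was assumed to vary like the others.

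Over all miRNAs, calls per total miRNA counts were 47 up and 112 down in the Hep3B pair, against 284 and 21 by total reads, and 56 and 74 for Huh7-C against Huh7, against 24 and 132. They were 84 and 249 for Huh7 against Hep3B, against 282 and 76, and 114 and 216 for Huh7-C against Hep3B-C, against 125 and 200. At the assumed variation of 0.4 the 4 comparisons gave 25 and 0, 5 and 10, 109 and 38, and 31 and 82. In the fits of both lines DESeq2 called 61 up and 74 down between lines, against 43 and 43 with edgeR, 21 and 31 with total reads, and 61 and 64 without the block. Against this last pair of counts, leaving out a library as well gave 51 and 78 (Hep3B), 70 and 72 (Hep3B-C), 24 and 29 (Huh7), and 23 and 23 (Huh7-C). Depth limited miR-152 most, with 158 counts in Huh7.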
